A study of Mus musculus with 5 samples.

Results

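T-box genes encode transcription factors that bind DNA through a shared T-box domain. The 7 members described here are Tbx2, Tbx3, Tbx4, Tbx5, Tbx15, Tbx18 and Tbx20, chosen by name from the 24411 genes of a molecule count table. The table comes from mouse embryos of the C57BL/6 strain, all wild type and with no treatment named, at day 9.5 (E9.5) or day 10 (E10) of development. Blood was taken from the heart, and a flow sort removed cells with TER119, CD41, CD43 or CD45 on their surface, proteins found on red cells, platelets and other blood cells. Per the labels, what remained are circulating cells outside the haematopoietic lineage. There were 2 batches at E9.5 and 3 at E10, each with 96 columns of counts, which are called wells here. The labels do not say whether batches came from separate litters, so p-values measure only the spread between these batches.

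Tbx2 and Tbx3 are mainly transcriptional repressors, used widely in limb, heart and neural tissue of the embryo. Tbx5 marks the forelimb field and parts of the heart, while Tbx4 marks the hindlimb field, where the homeodomain factor Pitx1 acts upstream of it. Tbx15 and Tbx18 act in limb, dermal and somitic mesenchyme, Tbx18 also in the epicardium and the venous pole of the heart, and Tbx20 in heart muscle and in certain motor and autonomic neurons.

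A cell was kept with at least 1000 detected genes and 30000 UMIs, where a UMI is a random tag that lets each captured RNA be counted once, which left 294 of 480 wells. Of the 480 wells 111 held no UMI. E9.5 replicates 1 and 2 gave 26 and 46 cells, and E10 replicates 1, 2 and 3 gave 87, 72 and 63. The median depth per batch lay between 144729 and 485692 UMIs a cell. Levels are CPM, the UMIs of a gene per 1000000 UMIs of a cell or of a batch's summed cells. A cell was called positive for a gene at 20 CPM or more with at least 3 UMIs. Clustering without the T-box genes gave 11 clusters, of which 2 were erythroid-like, 1 haematopoietic progenitor-like, 2 neural or neural crest-like and 1 was led by Dppa5a, a gene of early embryonic cells. The other 5 were left unnamed. The 3 blood-like clusters held 60 cells in spite of the sort and serve as the background for the T-box genes, and the other 234 cells are called non-blood. Well barcodes were the same 96 in every batch, and 6 of 92 Tbx2-positive and 7 of 124 Tbx3-positive cells had at least 10 times their UMIs of the gene in the same well number of another batch. For the 5 other members this number was 0.

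In the GRCm38 build the genes lie in part as neighbours. Tbx2 (chromosome 11, 85832551 to 85841948) is followed at a distance of 44.5 kb by Tbx4 (85886422 to 85916097), both on the plus strand. Tbx3 (chromosome 5, 119670669 to 119684724) is followed at 148 kb by Tbx5 (119832668 to 119885219), also on the plus strand. Tbx15 lies on chromosome 3 (99240381 to 99354259, plus strand). Tbx20 (24718138 to 24774303) and Tbx18 (87702800 to 87731260) lie on the minus strand of chromosome 9. Antisense or overlapping genes of Tbx3 (Tbx3os1), Tbx15 (Gm43120) and Tbx18 (D030062O11Rik) have no row in the table, and no strand setting of the counting is given, so their reads could not be told apart.

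Promoter sequences from RefSeq (GRCm38.p6, the 250 bases before the gene's start) were at hand for 3 of the 7 members. Those of Tbx4 and Tbx20 are shown because the cells that carried these genes also carried homeodomain factors, namely Pitx1 and Hox factors with Tbx4, and Isl1 with Tbx20. Many homeodomain factors bind sites with a TAAT core. Capitals mark TAAT on either strand (TAAT or ATTA). Tbx4 is read on the plus strand at chr11:85896515-85896764, a RefSeq start inside the longer GENCODE gene model, and Tbx20 on the minus strand at chr9:24774304-24774553.
Tbx4: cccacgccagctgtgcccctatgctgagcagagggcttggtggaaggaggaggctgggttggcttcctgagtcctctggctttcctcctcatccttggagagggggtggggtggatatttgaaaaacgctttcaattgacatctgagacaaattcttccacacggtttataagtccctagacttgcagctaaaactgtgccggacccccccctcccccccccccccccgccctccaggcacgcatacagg
Tbx20: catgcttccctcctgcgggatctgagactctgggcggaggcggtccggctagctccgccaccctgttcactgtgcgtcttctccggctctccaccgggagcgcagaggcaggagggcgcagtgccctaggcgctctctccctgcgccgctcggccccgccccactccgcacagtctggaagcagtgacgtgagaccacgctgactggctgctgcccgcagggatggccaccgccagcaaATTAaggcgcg
The Tbx4 window held 0 such cores, the Tbx20 window held 1, and the Tbx18 window also held 1. TAAT occurred in 54.9% of 32851 promoter windows of this length. The T-box consensus GGTGTGA, searched on both strands, was in 0 of the 3 windows and in 3.33% of all. A match or its absence in so short a window describes the letters only.

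Tbx3 and Tbx2, the widely used repressors, were positive in the most cells. Tbx3 was positive in 6, 28, 58, 7 and 25 cells of E9.5 replicates 1 and 2 and E10 replicates 1, 2 and 3, which is 23.1%, 60.9%, 66.7%, 9.72% and 39.7% of the cells. Its level over a batch's cells was 27.6, 90.8, 114, 11.5 and 80.8 CPM in that order. Batches of both stages were high and low, with E10 replicate 2 the lowest and E10 replicate 1 the highest. Tbx2 was positive in 6, 20, 30, 14 and 22 cells, or 23.1%, 43.5%, 34.5%, 19.4% and 34.9%, at 15.9, 56.7, 51.3, 19.2 and 39.6 CPM over the cells. The ranges of the stages overlapped for both genes. Among positive cells Tbx3 ran from 23.2 through a median of 142 to 773 CPM and Tbx2 from 20.004 through 94.4 to 725 CPM. In E10 replicate 2, 6 of 30 blood-like cells were also positive for Tbx2, against 8 of 42 non-blood cells, at median depths of 388294 and 270794.5 UMIs, so the share of positive cells there did not stand above background. The levels did in part, since 6 of the 8 non-blood cells lay at 51.1 to 344 CPM and the highest blood-like cell at 29.3 CPM. In the other 4 batches 0 blood-like cells were Tbx2-positive, but E9.5 replicate 1 and E10 replicate 1 held only 1 such cell each. For Tbx3, 1 of 60 blood-like cells was positive, the only one of E10 replicate 1, at 25.9 CPM. Of the 57 positive non-blood cells of that batch 55 lay above it. Over all batches a Tbx3 UMI was found in 76.7% of blood-like and 76.9% of non-blood cells, at 4.04 and 98.7 CPM over the cells.

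The limb genes Tbx5 and Tbx4 were rare, with most positive cells of each in 1 batch. Tbx5 was positive in 1, 9, 0, 0 and 2 cells of the batches in the same order, at 2.65, 12.9, 0.450, 0 and 1.19 CPM over all cells. The 9 cells of E9.5 replicate 2 were 19.6% of that batch (95% exact interval 9.36% to 33.9%), and 0 of 87 and 0 of 72 cells in E10 replicates 1 and 2 allow shares of up to 3.45% and 4.17%, taking 3 cells as the limit that a count of 0 allows. Intervals and limits cover counting error only. Tbx4 was positive in 0, 0, 0, 7 and 1 cells, at 0.133, 0, 0.338, 6.88 and 1.19 CPM. The 7 cells were 9.72% of E10 replicate 2 (interval 4.00% to 19.0%), where 23 of 30 blood-like cells also had a Tbx4 UMI, but 0 of these were positive and the highest stood at 11.9 CPM. The 8 positive cells lay between 32.1 and 77.6 CPM. No cell was positive for both Tbx4 and Tbx5.

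Tbx15 was positive in 0 cells of both E9.5 batches and in 3, 15 and 7 cells of E10 replicates 1, 2 and 3, at 0.530, 0, 4.26, 41.8 and 17.9 CPM over all cells. Every E10 batch stood above both E9.5 batches. In E10 replicate 2, 29 of 30 blood-like cells had a Tbx15 UMI and 1 was positive at 22.2 CPM, while positive cells of that batch had a median of 167 CPM. Tbx18 was positive in 3, 0, 11, 11 and 3 cells, at 8.08, 0.597, 12.5, 20.03 and 5.70 CPM, with E9.5 replicate 1 within the range of the E10 batches. Tbx20 was positive in 0, 5, 5, 2 and 8 cells, at 0.795, 22.3, 17.3, 2.23 and 21.6 CPM. E9.5 replicate 1 and E10 replicate 2 were the low batches, and the stages overlapped. Blood-like cells were positive for Tbx18 and Tbx20 in 0 of 60 cells.

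**Figure D1:**
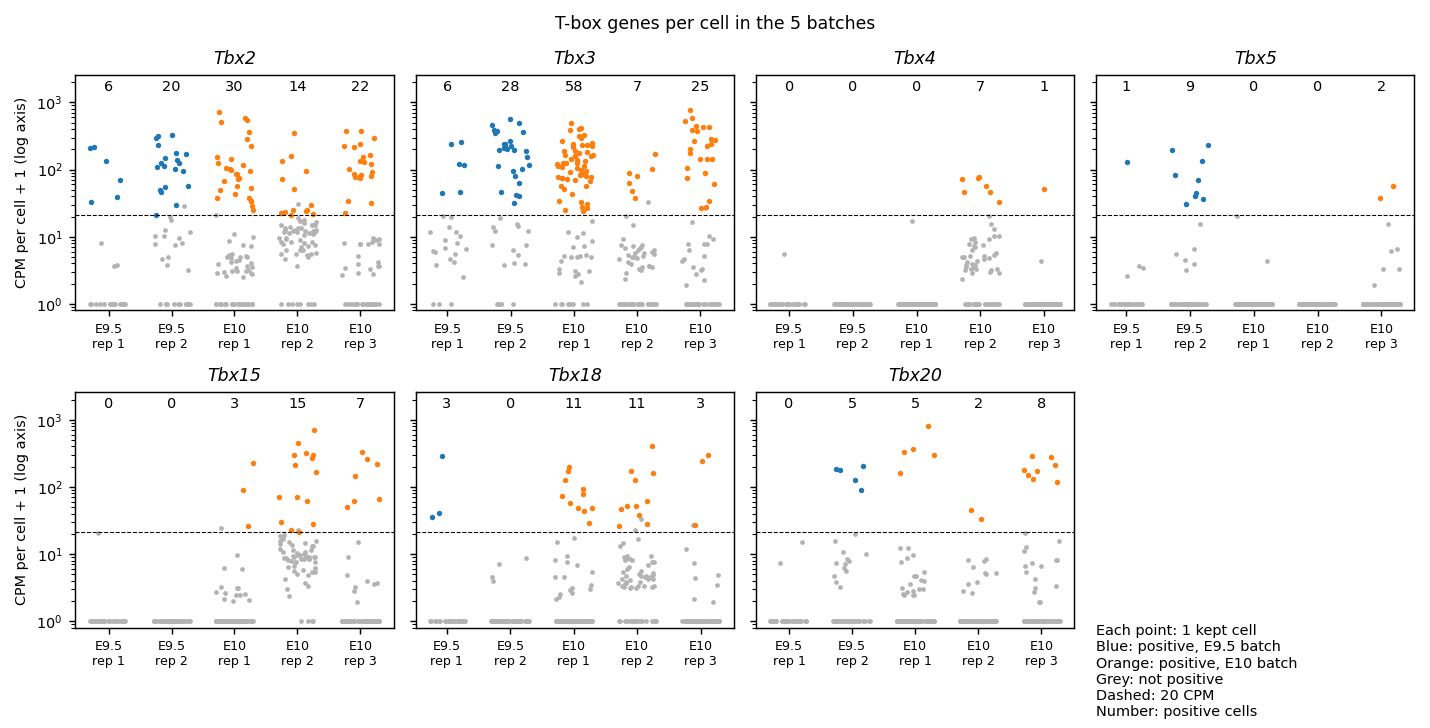
CPM of each T-box gene in each kept cell (points, log axis, 1 added), by batch, with the number of positive cells above each column and the 20 CPM limit dashed. Tbx4-positive cells lie in E10 replicates 2 (7 cells) and 3 (1 cell), and 9 of the 12 Tbx5-positive cells in E9.5 replicate 2.

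The share of calls near the limit ran from 5% of positive cells for Tbx20 to 33.3% for Tbx5. Between 20 and 40 CPM lay 21 Tbx2-positive, 12 Tbx3-positive, 7 Tbx18-positive, 5 Tbx15-positive, 4 Tbx5-positive, 1 Tbx4-positive and 1 Tbx20-positive cells. Just under it, at 10 to 20 CPM, were 30 cells for Tbx2, 17 each for Tbx3 and Tbx15, 9 for Tbx20, 6 for Tbx18, 4 for Tbx4 and 3 for Tbx5. Of the remaining T-box genes, Tbx1, a gene of the pharyngeal region, was positive in 40 cells, and Mga, which encodes a broadly expressed T-box protein, in 198.

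Stage differences were tested on the counts of all cells summed per batch, with edgeR's quasi-likelihood test and Benjamini-Hochberg adjustment over 14103 genes. None of the members passed, nor did any other gene (0 called, 0% of genes tested, with 1119 or 7.93% at an unadjusted p under 0.05 and 86 or 0.61% called by DESeq2). The log2 difference of E10 over E9.5 was 6.41 for Tbx15 (standard error 1.57, adjusted p = 0.616 with edgeR), 5.43 for Tbx4 (standard error 2.31, adjusted p = 0.616) and -4.06 for Tbx5 (standard error 1.63, adjusted p = 0.616). DESeq2 called Tbx15 (adjusted p = 0.00148) and not Tbx4 (adjusted p = 0.254) or Tbx5 (adjusted p = 0.219). The batches of the stages did not overlap for these 3 of 7 genes, against 28% of all genes tested. For Tbx4 this rested on 0.338 CPM in E10 replicate 1, from 1 cell that was not positive. A limit of 3 counts would stand at 0.398 and 0.358 CPM in E9.5 replicates 1 and 2, above that value. The separation for Tbx4 therefore lay below what these batches could resolve. For Tbx5 the lower E9.5 batch, replicate 1, stood at 2.65 CPM and held 1 positive cell, at 130 CPM. E10 replicate 3 stood at 1.19 CPM. Tbx2, Tbx3, Tbx18 and Tbx20 stood at -0.20, -0.04, 1.60 and -0.03 with adjusted p of 0.948, 0.995, 0.668 and 0.997 in edgeR. Each batch holds 1 stage and its own makeup of clusters, and these cannot be told apart.

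As a share of cells, Tbx5-positive cells made up 11.7% ± 11.1 (SD, n = 2 batches) of E9.5 and 1.06% ± 1.83 (SD, n = 3 batches) of E10, with a two-sided exact permutation p = 0.1, the smallest that the 10 splits of the batches allow. The separation was narrow, since E9.5 replicate 1 stood at 3.85% from 1 positive cell and E10 replicate 3 at 3.17% from 2. Tbx15 stood at 0% in both E9.5 batches and 11.8% ± 8.71 (SD, n = 3) at E10, with an exact permutation p = 0.2. With 3 cells as the limit, the counts of 0 in E9.5 replicates 1 and 2 allow shares of up to 11.5% and 6.52%. E10 replicate 1, at 3.45%, lay under both. The other 5 members had p from 0.5 to 0.9, and after adjustment over the 7 genes p was between 0.7 and 0.9 (exact permutation).

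Across clusters the members had different places, given here as a description. Tbx3 was positive in 80.0% of the 25 cells of neural cluster 4, led by the noradrenergic gene Dbh, in 78.4% of the 51 cells of cluster 0 and in 21 of the 22 cells of the Dppa5a-led cluster. Tbx2 was positive in 14 of the 16 cells of neural cluster 9, led by the glial gene Sox10, and in 17 of cluster 4. The unnamed clusters 0 and 2 held 26 and 14 more Tbx2-positive cells, which is 51.0% and 43.8% of their 51 and 32 cells. Of the 20 Tbx20-positive cells 14 lay in cluster 4, of the 12 Tbx5-positive cells 9 lay in cluster 0, and of the 8 Tbx4-positive cells 6 lay in cluster 1. Cluster 1, 36 of whose 40 cells came from E10 replicate 2, was led by Col4a1, Col4a2, Lama1, Hoxc10, Hoxa10, Lamb1, Tbx15, Mecom, Pitx1 and Fam132a, in that order. This cluster also held 13 of the 25 Tbx15-positive and 9 of the 28 Tbx18-positive cells. Tbx18 was positive in cells of 6 clusters, at 1.96% to 22.5% of their cells.

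**Figure D2:**
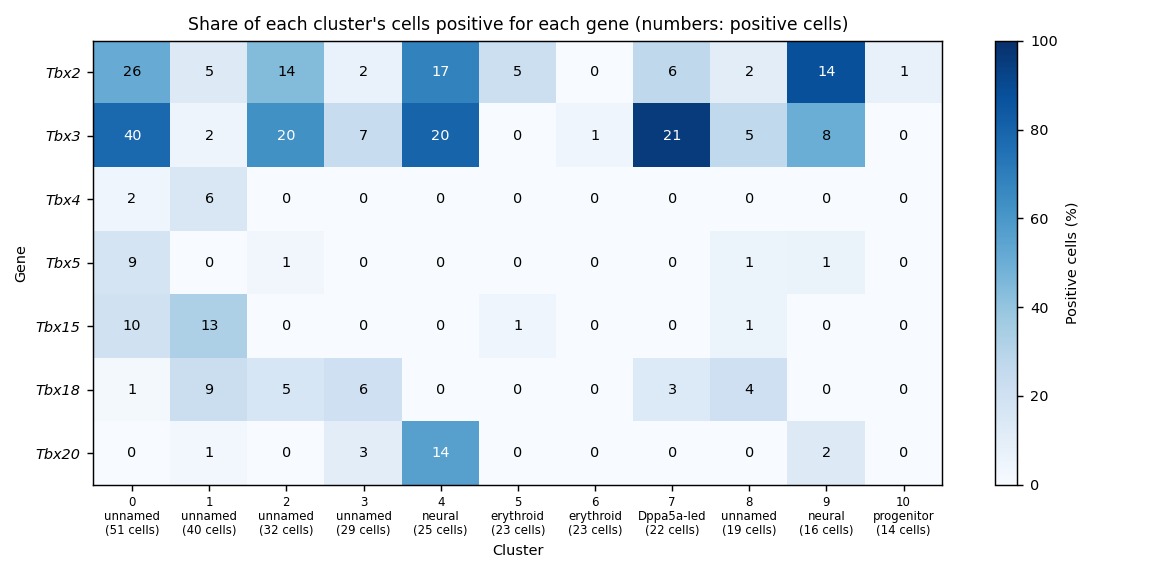
Share of the cells of each of the 11 clusters (columns) that were positive for each T-box gene (rows), with the number of positive cells in each square. Tbx20 has 14 of its 20 positive cells in neural cluster 4, while Tbx4 and Tbx15 have 6 and 13 in cluster 1.

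Many cells carried several members. None of the 7 was positive in 110 cells, 1 in 96 cells, 2 in 54, 3 in 31 and 4 in 3. Tbx2 and Tbx3 shared 63 cells, 68.5% of the Tbx2-positive and 50.8% of the Tbx3-positive cells. Of the 12 Tbx5-positive cells 10 were positive for Tbx2 and 10 for Tbx3, and of the 20 Tbx20-positive cells 16 were positive for each. All 8 Tbx4-positive cells were positive for Tbx15 and 5 for Tbx18, but 1 for Tbx2 and 0 for Tbx3. Of all non-blood cells 36.8% were positive for Tbx2 and 52.6% for Tbx3. In E9.5 replicate 2, which held 9 of the Tbx5-positive cells, these shares were 62.5% and 87.5%. In E10 replicate 2, which held 7 of the Tbx4-positive cells, they were 19.0% and 16.7%, with 33.3% for Tbx15 and 26.2% for Tbx18. The part of the batch in this shared use was not tested. Tbx15 and Tbx18 shared 9 cells, 36.0% of the first and 32.1% of the second.

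Genes among the 5 closest to each member across the 234 non-blood cells are given by Pearson's r of log2(CPM + 10), as a description of cells that share batches and depth. Those of Tbx4 were Tbx15 (r = 0.64), Pitx1 (0.61) and Hoxa10 (0.52). Those of Tbx15 were Pitx1 (0.54), the matrix gene Smoc1 (0.51) and Hoxa10 (0.50), while the blood genes Gfi1b (0.46) and Kel (0.45) followed. Those of Tbx20 were Tlx2 (0.67), Rbm24 (0.66) and Dll3 (0.65), and those of Tbx2 included Miat (0.41) and Sox10 (0.41). For Tbx3 they were Sap30 (0.41) and Hand2 (0.41), for Tbx5 Stamos (0.40), Ppp2r2b (0.38) and the limb gene Msx2 (0.37), and for Tbx18 Hapln1 (0.33) and Mecom (0.32).

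The Tbx4-positive and Tbx5-positive cells could only be compared by their values, since no batch held 3 cells of each, and batch and gene cannot be told apart between them. All 8 Tbx4-positive cells were positive for Pitx1, at 22.8 to 531 CPM with a median of 342, for Hoxa10 at 31.9 to 264 CPM and for Hoxc10, a gene of the posterior Hox groups, at 110 to 225 CPM. In the 12 Tbx5-positive cells Pitx1 ranged from 0 to 14.97 CPM with a median of 0, Hoxc10 from 0 to 13.8 CPM, and Hoxa10 was at 0 in every cell. The ranges of these genes did not overlap, and how many other genes also separated the same cells was not counted. The Tbx5-positive cells instead had Tbx3 at a median of 151 CPM and Tbx2 at 87.2 CPM, against 0 and 7.26 CPM in the Tbx4-positive cells, and Msx2, a BMP-responsive limb gene, was positive in 7 of 12 against 0 of 8. Hoxa5, of the anterior Hox groups, was positive in 8 of 12 Tbx5-positive and 3 of 8 Tbx4-positive cells. Hoxc9 and Hoxa9 were used by both, in 8 of 12 Tbx5-positive cells each and in 6 and 8 of 8 Tbx4-positive cells. Both groups carried the mesenchymal factors Prrx1 (8 of 8 and 10 of 12 positive) and Twist1 (8 of 8 and 11 of 12). Fgf10, the limb bud growth signal, was positive in 1 Tbx4-positive and 0 Tbx5-positive cells, and Lmx1b, of the dorsal limb, in 1 and 0. The heart gene Nkx2-5 was at 0 in all cells of both groups and Gata4 at 0 in the Tbx5-positive cells.

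Within its own batch, part of this pattern was shared by cells without the gene. In E10 replicate 2, Pitx1 had a median of 384 CPM in the 7 Tbx4-positive cells and 9.13 CPM in the 35 other non-blood cells, Prrx1 had 293 and 21.6 CPM, and Shox2, a homeobox gene of proximal limb mesenchyme, had 253 and 13.4 CPM. Hoxc10, in contrast, had 166 and 172 CPM and Hoxa10 115 and 81.7 CPM. In E9.5 replicate 2, the 9 Tbx5-positive cells had Msx2 at a median of 67.1 CPM against 9.15 in the 23 other non-blood cells and Twist1 at 325 against 153 CPM, with Tbx3 at 196 against 155 CPM, and Hoxc10 and Hoxa10 were at 0 in both. These are values of 1 batch each, with no test. Over all batches the Tbx5-positive cells were shallower, at a median of 132364 UMIs against 291619 in other non-blood cells, while the Tbx4-positive cells stood at 271913.5 against 280103, and the part of depth in these values was not tested. Of the Tbx5-positive cells 1 in E9.5 replicate 2 lay in the Sox10-led neural cluster and was also positive for Tbx20.

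**Figure D3:**
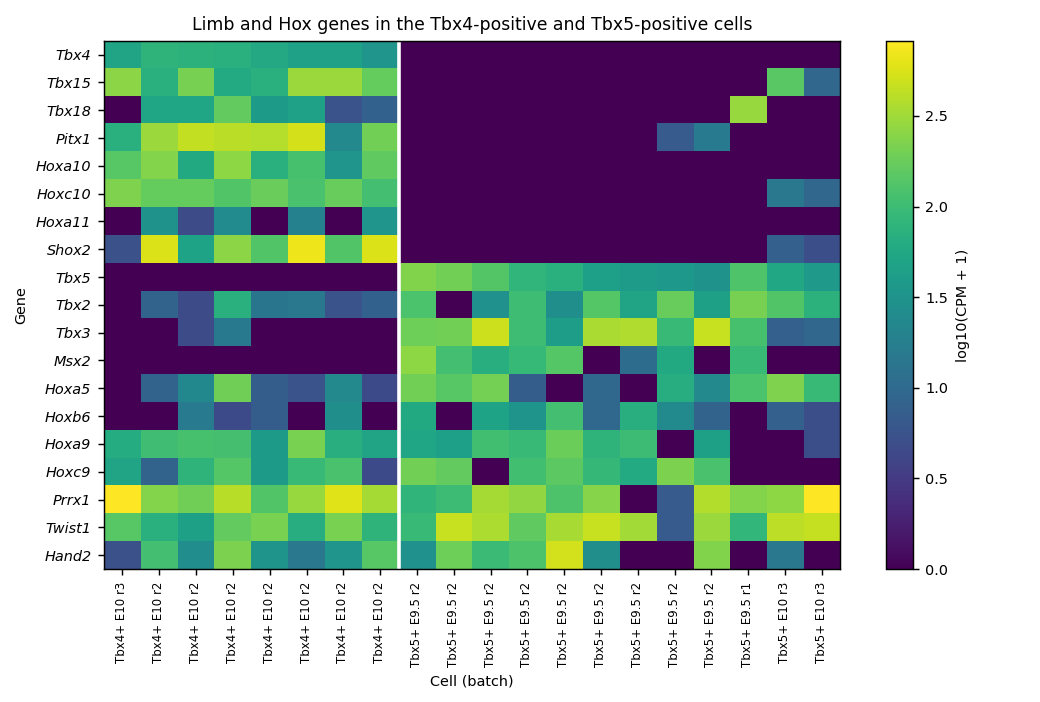
Levels (log10 of CPM + 1, colour) of T-box, limb and Hox genes (rows) in the 8 Tbx4-positive (left) and 12 Tbx5-positive cells (right), each column 1 cell with its batch. Pitx1, Hoxa10 and Hoxc10 are bright in every Tbx4-positive cell, and Tbx2 and Tbx3 in most Tbx5-positive cells.

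For 5 members there were at least 3 batches with at least 3 positive and 3 other non-blood cells, and the genome was compared between them by edgeR's quasi-likelihood test on sums per batch, with batch as a block and Benjamini-Hochberg adjustment over all genes tested. The gene that chose the cells stayed in each fit and in its adjustment, and was left out only of the genes counted and named. Adjusted p close to 0.05 were therefore reached with that gene among those ranked. Levels in these comparisons are TMM-scaled CPM of the summed cells, as mean ± SD over batches. The median log2 difference of all genes tested was -0.05 for Tbx2, 0.01 for Tbx3, -0.33 for Tbx15, -0.28 for Tbx18 and -0.25 for Tbx20, and single differences should be read relative to it.

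Tbx20-positive cells had more RNA of several autonomic neuron genes. In the 3 batches used (5, 5 and 8 positive cells in E9.5 replicate 2 and E10 replicates 1 and 3), 88 genes were higher (0.765%) and 65 lower (0.565%) of 11497 (1.33% called). Of the fixed list of 19 motor and autonomic neuron genes 10 could be tested, 6 were higher and 0 lower, with a median log2 difference of 3.51. Isl1, a homeodomain factor of motor and sympathetic neurons, stood at 611 ± 228 CPM against 70.1 ± 97.8 (SD, n = 3 batches), a log2 difference of 4.39 (standard error 0.73, adjusted p = 0.00631). It was higher in 3 of 3 batches. Gata3 (3.09), Hand2 (2.92) and Dbh (4.07), which makes noradrenaline, also rose (adjusted p = 0.00168, 0.0127 and 0.0407), while Th, the first enzyme of that pathway, did not pass at 3.89 (standard error 1.14, adjusted p = 0.143). The motor neuron genes Mnx1, Lhx3 and Chat did not pass the filter on low counts. Of 14 pan-neuronal genes 13 could be tested and 4 were higher, among them Elavl3 (3.20), Tubb3 (2.70) and Nefm (2.84), and the glial factor Sox10 was higher at 2.45 (adjusted p = 0.0151).

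Among the other members Tbx2 rose with Tbx20, at 216 ± 21.3 against 54.5 ± 32.4 CPM, a log2 difference of 2.16 (standard error 0.40, edgeR adjusted p = 0.0127, higher in 3 of 3 batches). Tbx3 stood at 247 ± 99.3 against 126 ± 61.5 CPM and did not pass (0.99, edgeR adjusted p = 0.343). Other genes that rose were Btbd17 (6.26), the phosphodiesterase Pde2a (6.12), the neuropeptide gene Cck (5.37), Prox1 (4.73), the nicotinic receptor gene Chrnb4 (4.63) and Dll3 (4.52), a Notch pathway gene. Of the 12 mesenchymal markers 11 could be tested, 3 were lower and 0 higher. Prrx1 (-3.45) and Twist1 (-3.90), which are among those 3, and Irx3 (-6.98) were lower in 3 of 3 batches, as was Ifitm1 (-7.996). Of the 19 genes named so far as changed and Actc1, described next, 9 kept their call without E10 replicate 3, the batch with the most positive cells, and 11 lost it, with adjusted p from 0.0512 to 0.612, among them Tbx2, Gata3 and Hand2. Without E10 replicate 1 only Ifitm1 was lost (edgeR adjusted p = 0.322), and without E9.5 replicate 2 all 20 kept their call. Without the Dppa5a-led cluster 15 did, and Dbh, Nefm, Pde2a, Btbd17 and Ifitm1 were lost (edgeR adjusted p from 0.0595 to 0.329).

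The 20 Tbx20-positive cells were not all of this kind. A split by the heart muscle gene Actc1, made after the values were seen and given with no test, left 16 cells not positive for it, at 0 to 6.48 CPM. All 16 were positive for Tbx2 (24.3 to 725 CPM) and Tbx3 (81.0 to 584 CPM), 15 for Isl1 and 14 for Dbh. The other 4 cells, all of E10, were positive for Actc1 at 71.3 to 8071 CPM and for neither Tbx2 nor Tbx3. In E10 replicate 1, 1 of these cells had Actc1 at 8071, Myl4 at 3670, Tnnt2 at 2685 and Gata4 at 858 CPM, all genes of heart muscle, with Acta2 at 0. In E10 replicate 2, 1 cell had the atrial gene Myl7 at 959, the epicardial gene Wt1 at 363, Gata4 at 350 and Tbx18 at 404 CPM. The remaining 2 cells, of E10 replicates 1 and 3, had the smooth muscle actin Acta2 at 6470 and 7090 CPM with Actc1 at 2380 and 3275 CPM and no Tnnt2. Nkx2-5 was at 0 in all 20 cells. The rise of Actc1 in the Tbx20 comparison (5.19, edgeR adjusted p = 0.000389, higher in 2 of 3 batches) therefore rested on 3 cells.

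**Figure D4:**
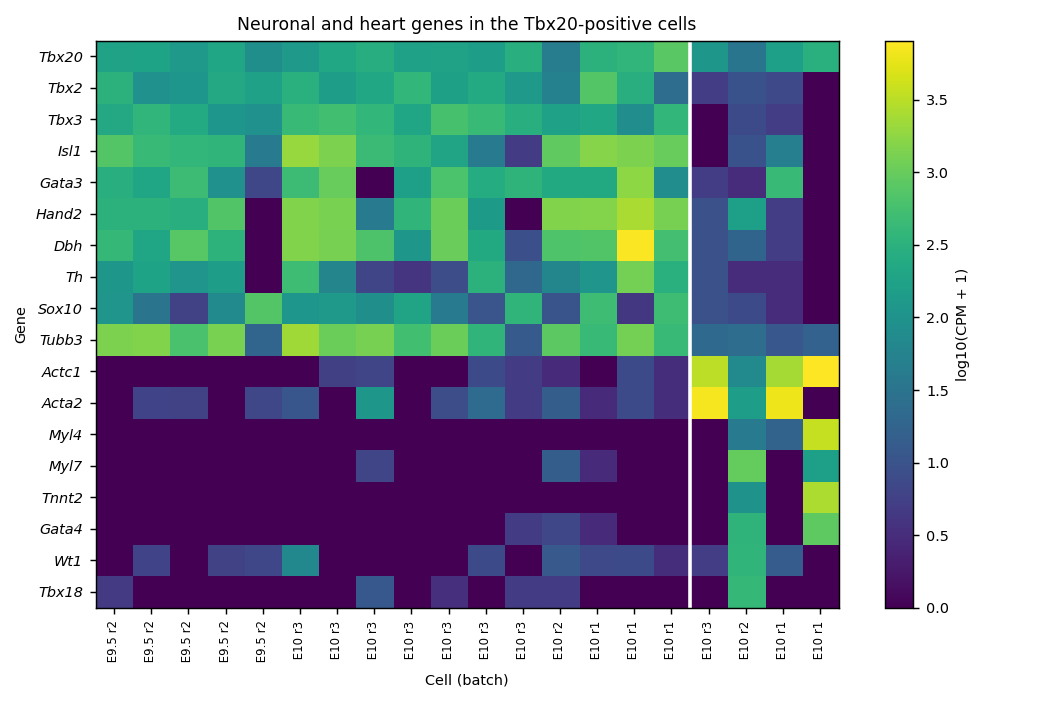
Levels (log10 of CPM + 1, colour) of neuronal genes, muscle genes and T-box genes (rows) in the 20 Tbx20-positive cells (columns, with their batch), split by Actc1. Tbx2 and Tbx3 are bright in the 16 cells on the left, and Actc1 in the 4 on the right.

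Tbx2-positive cells had more RNA of several neural crest, glial and autonomic neuron genes. All 5 batches entered (6, 20, 30, 8 and 22 positive cells), and 23 genes were higher (0.17%) and 15 lower (0.111%) of 13530 (0.281% called). Of 12 neural or neural crest markers 4 were higher and 0 lower, among them Foxd3 (28.9 ± 13.1 against 2.80 ± 3.38 CPM, SD, n = 5 batches, log2 difference 3.86) and Sox10 (2.88). Both were higher in 5 of 5 batches, with adjusted p of 0.00955 and 0.0127. Of the motor and autonomic neuron genes 5 of 12 tested were higher, among them Isl1 (2.69), Hand2 (2.01) and Dbh (2.28), the last with an adjusted p of 0.0482 and in 4 of 5 batches. The homeobox gene Dlx2 was higher at 2.54. Lower were the epithelial keratins Krt19 (-5.47) and Krt8 (-2.73), the endothelial gene Emcn (-4.40), the somite gene Pax3 (-2.26) and the basement membrane collagen Col4a1 (-1.22), in 5 of 5 batches. Among the members Tbx20 (36.5 ± 30.9 against 3.33 ± 1.62 CPM, 2.87, edgeR adjusted p = 0.0764) and Tbx3 (136 ± 64.1 against 73.9 ± 71.9 CPM, 1.504, edgeR adjusted p = 0.138) did not pass, and of 20 limb mesenchyme genes 19 could be tested and only Hand2 was called.

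With the 2 neural clusters left out of the Tbx2 comparison, 2 of the 11 genes named as changed kept their call, Emcn and Col4a1, and the other 9 had adjusted p from 0.0687 to 0.999 in edgeR, with Isl1 at -0.13 and Dbh at -0.73. Leaving out 1 batch at a time kept between 4 and 9 of the 11 calls. The fewest remained without E10 replicate 2 (4, with the lost genes at 0.0578 to 0.546) and without E10 replicate 3 (5, at 0.0642 to 0.132), then without E10 replicate 1 (6, at 0.0555 to 0.37), E9.5 replicate 2 (6, at 0.0578 to 0.959) and E9.5 replicate 1 (9, at 0.0556 to 0.697). Hand2 kept its call without each single batch but not without the neural clusters. With a limit of 50 CPM for a positive cell 2 of the 11 calls remained, and with any UMI also 2. Hand2 was lost in both. Dbh was also lost without the 6 cells that had 10 times their Tbx2 UMIs in the same well number elsewhere (edgeR adjusted p = 0.104) and without the Dppa5a-led cluster (0.160).

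Tbx3-positive cells had more RNA of several noradrenergic and neuronal genes. The 5 batches held 6, 28, 57, 7 and 25 positive cells, with only 4 other cells in E9.5 replicate 2, and 24 genes were higher (0.178%) and 7 lower (0.0518%) of 13521 (0.229% called). Dbh stood at 246 ± 302 against 42.2 ± 83.0 CPM (SD, n = 5 batches), a log2 difference of 3.93 (standard error 0.41, adjusted p = 1.96e-06), and Hand2 at 215 ± 173 against 20.1 ± 13.9 CPM (3.01, standard error 0.38, adjusted p = 6.42e-05). Dbh was higher in 5 of 5 batches and Hand2 in 4. Th (2.60) and Isl1 (2.39) were also higher, and in all 5 of 12 motor and autonomic neuron genes tested rose and 0 fell. Of 14 pan-neuronal genes 3 rose, among them Elavl3 (4.05) and the neurofilament gene Nefm (2.06), and Cck (4.41) and Dll3 (4.19) rose as well. Krt19 (-7.35), the muscle genes Actc1 (-4.23) and Tagln (-2.97) and the growth factor gene Igf2 (-0.73) were lower in 5 of 5 batches. Tbx2 stood at 78.9 ± 37.3 against 34.7 ± 33.8 CPM, higher in 5 of 5 batches, and did not pass (1.51, edgeR adjusted p = 0.265), nor did Tbx20 (2.24, edgeR adjusted p = 0.819).

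Dppa5a was higher in Tbx3-positive cells at 4.74 (edgeR adjusted p = 0.000372), in 2 of 5 batches. Without the Dppa5a-led cluster, all of whose 22 cells came from E10 replicate 1, it stood at -0.44 (adjusted p = 1) and the other 12 named genes kept their calls. Without the neural clusters 4 of the 13 did (Dppa5a, Actc1, Krt19 and Tagln), and the others had adjusted p from 0.623 to 1 in edgeR, with Dbh at -0.07 and Dll3 at -0.70. Without 1 batch, 6 of 13 calls remained without E9.5 replicate 2 (the lost genes at 0.0524 to 1), 9 without E10 replicate 3 (0.0965 to 1), 10 without E10 replicate 1 (of 12 tested, 0.0601 to 0.278), 12 without E10 replicate 2 (Isl1 lost at 0.281) and 13 without E9.5 replicate 1. With a limit of 50 CPM for a positive cell 5 of the 13 calls remained, and Dbh, Elavl3, Th, Cck, Dll3, Nefm, Dppa5a and Igf2 were lost (edgeR adjusted p from 0.0631 to 0.9998). With any UMI 5 also remained, Dbh and Hand2 among them, and the lost genes had adjusted p from 0.741 to 0.982 in edgeR.

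Tbx15-positive cells had more RNA of several limb mesenchyme genes and less of several neuronal genes. The comparison used E10 replicates 1, 2 and 3 with 3, 14 and 7 positive cells, and 32 genes were higher (0.256%) and 59 lower (0.472%) of 12499 (0.728% called). Of the 20 limb mesenchyme genes 19 could be tested and 4 were higher and 1 lower. Prrx1, a homeobox gene of limb mesenchyme, stood at 800 ± 462 against 156 ± 117 CPM (SD, n = 3 batches), a log2 difference of 2.46 (standard error 0.22, adjusted p = 4.86e-14). Shox2 stood at 249 ± 117 against 49.3 ± 17.2 CPM (2.28, adjusted p = 3.55e-06), and Prrx2 (1.28) and Twist1 (1.14) rose as well (adjusted p = 0.00739 and 0.0165). The growth factor gene Igf1 (1.8), Slitrk6 (2.85) and the BMP target Id1 (0.97) were higher, in 3 of 3 batches. Tbx3 was the 1 member called, lower at 17.1 ± 17.0 against 90.2 ± 57.0 CPM (-2.45, standard error 0.61, edgeR adjusted p = 0.0214). Tbx4 stood at 14.6 ± 15.8 against 0.589 ± 0.755 CPM and Pitx1 at 101 ± 143 against 14.5 ± 5.89 CPM, and neither passed (4.28 and 1.07, edgeR adjusted p = 0.711 and 0.79), each higher in 2 of 3 batches. Of 9 motor and autonomic neuron genes tested 7 were lower, among them Hand2 (-3.15) and Isl1 (-3.58), and of 14 pan-neuronal genes 6, among them Tubb3 (-3.09). Hoxb5 (-2.91) and the somite genes Foxc2 (-3.85) and Pax3 (-3.25) were lower too, and 0 of 10 tested genes of Hox groups 9 to 13 were called.

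Without the neural clusters 3 of these 14 calls remained (Prrx1, Shox2 and Foxc2), and the others had adjusted p from 0.0587 to 0.989 in edgeR. Without E10 replicate 3, 5 of 14 remained (the lost genes at 0.0916 to 0.998), without E10 replicate 2, 8 (0.0776 to 0.953) and without E10 replicate 1, 10 (0.125 to 0.217). Prrx1 and Isl1 kept their calls in all 3. The Tbx3 call was lost without E10 replicate 1 and without E10 replicate 3. With a limit of 50 CPM for a positive cell 11 of the 14 calls remained, and with any UMI only 1, that of Prrx1.

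The Tbx18 comparison gave the fewest calls of the 5 comparisons of positive with other cells. In E9.5 replicate 1 and E10 replicates 1, 2 and 3, with 3, 11, 11 and 3 positive cells, 6 genes were higher (0.0453%) and 13 lower (0.0982%) of 13235 (0.144% called). Gpc3, a cell surface proteoglycan gene, stood at 1024 ± 447 against 450.3 ± 103 CPM (SD, n = 4 batches), a log2 difference of 1.12 (standard error 0.18, adjusted p = 0.00300). The growth factor receptor gene Pdgfra stood at 196 ± 89.4 against 67.6 ± 40.5 CPM (1.62, adjusted p = 0.0480), and the collagen gene Col1a1 (2.21), the chemokine gene Cxcl12 (1.15) and the early response gene Fosb (0.98) also rose. Of the fixed list of 10 mesenchymal matrix genes, Col1a1 and Pdgfra were higher and 0 lower. Dbh (-3.58), Elavl3 (-3.66), Nefm (-2.90) and Pax3 (-3.91) were lower in 4 of 4 batches. Of 14 pan-neuronal genes tested 3 were lower, and of 13 motor and autonomic neuron genes 3, with 0 higher in either list. Of 9 epicardial and sinus horn genes 8 could be tested and 0 were called, although Wt1 reached 837 CPM in a Tbx18-positive cell of E10 replicate 1. No other member was called.

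Without E10 replicate 3, which gave 3 of the positive cells, 1 of the 9 named calls remained, that of Pax3, and the lost genes had adjusted p from 0.0658 to 0.999 in edgeR. Without E9.5 replicate 1 the 5 genes that rose were lost (0.0653 to 0.17) and the 4 that fell remained, and without E10 replicate 1 or 2, 8 remained each, with Pax3 lost (0.470 and 0.867). Without the neural clusters none of the 9 passed (0.0691 to 0.999), with Elavl3 at 0.25 and Nefm at 0.12. With a limit of 50 CPM for a positive cell 7 of the 9 calls remained, and with any UMI 0.

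**Figure D5:**
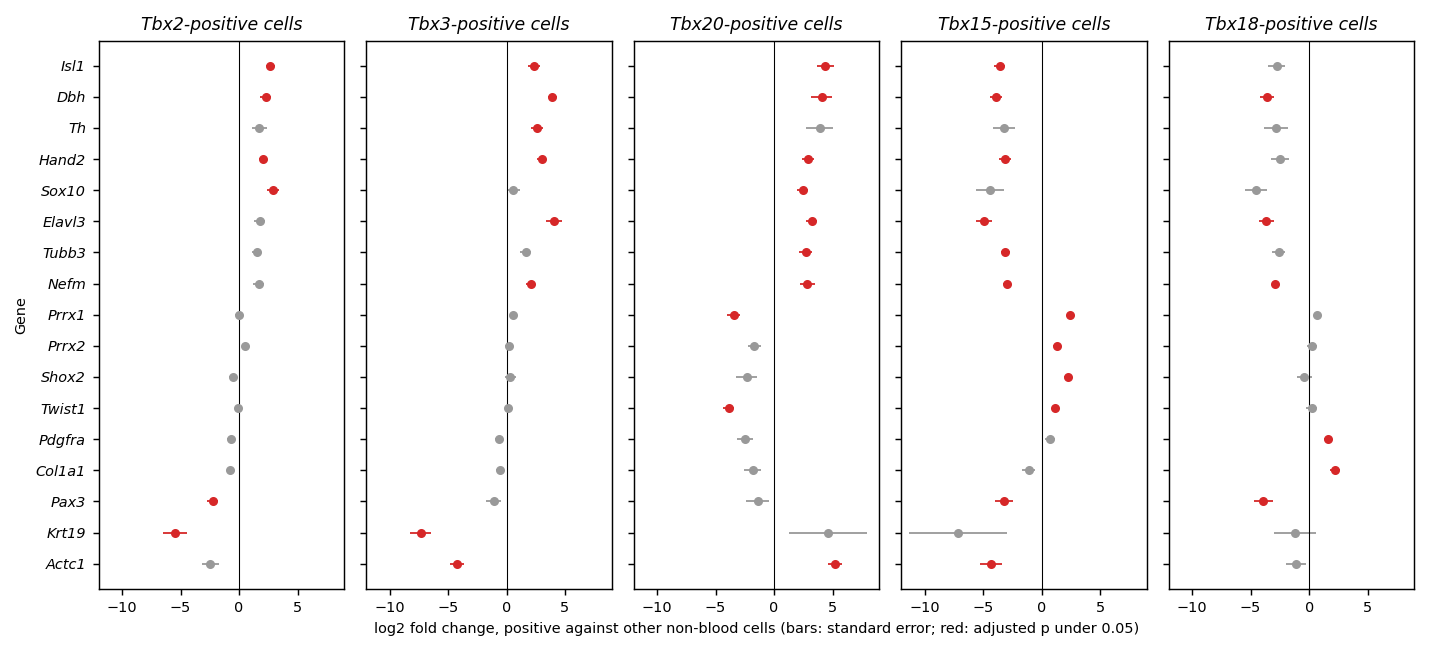
Log2 difference (points, with standard error) of 17 genes between cells positive for a T-box gene and other non-blood cells, 1 panel per T-box gene, with calls at adjusted p under 0.05 in red. Isl1, Dbh and Hand2 are called higher with Tbx2, Tbx3 and Tbx20, and Prrx1 and Shox2 are called higher with Tbx15.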

How the data were processed

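The deposited table holds UMI counts per gene and well, which the authors made with a modified STRT-seq protocol, per the labels' protocols. The submitters' processing notes name CASAVA 1.8, TopHat2 2.0.12, HTSeq and the mm10 build, and the order and settings are not given in the sources used here. The 95 spike-in rows were dropped, and columns were matched to the 5 batches by the batch number in their names. Cells were clustered with scanpy 1.11.5 and leidenalg 0.10.2 on 2000 variable genes, 20 components and 15 neighbours at resolution 1.0. The 343 genes left out were the T-box genes, list genes that were not cell type markers, globin and ribosomal protein genes, Y-linked genes, Xist and Tsix. List genes that were also markers, such as Prrx1, Twist1, Tubb3 and Actc1, could enter the clustering, so the clusters are not independent of them. No doublet caller was run. Clusters were named only from fixed markers. The levels of a batch come from 7545865 to 44415774 UMIs, and 95% intervals of shares are exact Clopper-Pearson intervals.

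Counts were summed per batch, or per batch and group of at least 3 cells, filtered with filterByExpr, scaled by TMM and tested with edgeR 4.0.16 (quasi-likelihood, R 4.3.3), with Benjamini-Hochberg adjustment over all genes tested and a threshold of 0.05. In the comparisons of positive and other cells the batch was a block, since both sums come from the same batch. Alternatives were DESeq2 1.42.0, no filter, other limits for a positive cell, at least 5000 UMIs, thinning to 30000 UMIs, other sets of cells and leaving out each batch. Leaving out the Dppa5a-led cluster, keeping repeated wells (those with under 10% of the UMIs of the same well number in another batch, and best correlated with it there) at 5000 UMIs and leaving out cells with 10 times the UMIs in the same well elsewhere were chosen after seeing the data. On simulated data with 200 changed genes the edgeR step recovered 100% of 16-fold changes. Of 4-fold changes it recovered 37% for stage, 79% for Tbx2, 90% for Tbx3, 32% for Tbx15, 54% for Tbx18 and 47% for Tbx20. The simulated counts had a fixed dispersion of 0.2, held no differences between batches and changed only genes above a floor of mean counts. The spread between the real batches was not simulated. These shares therefore do not give the size of change that the real comparisons could find. Some genes counted in the lists and totals are not reported here by name. The members and lists were chosen with earlier results of these data known. Genes named from the comparisons were members, genes of fixed lists, and genes among the 10 largest changes in each direction past the threshold that averaged 10 or more counts per sum and had 1 direction in every batch; likeness is given for up to 5 genes a member.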

Additional observations from a re-analysis of the deposited data

Results flagged for a closer look

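The 75 wells that had UMIs but did not pass the cell filter held T-box RNA above the 3 counts that a count of 0 allows. They held 15 UMIs of Tbx2, 26 of Tbx3, 12 of Tbx15, 4 of Tbx18 and 7 of Tbx20. Tbx4 and Tbx5 had 2 UMIs each, under that limit. These wells entered no comparison. Among them were 23 wells of at least 5000 UMIs that had under 10% of the UMIs of the same well number in another batch and, of that batch, correlated best with that well. In E10 replicate 2 there were 20 such wells, with r of 0.650 to 0.876 to E10 replicate 3. These 23 wells held 11 of the 15 Tbx2 UMIs, 10 of the 26 of Tbx3, 8 of the 12 of Tbx15, 0 of the 4 of Tbx18 and 1 of the 7 of Tbx20. Whether they were carried over between batches was not tested.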

How the results depend on the processing

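Of the counts of genes called, 43 moved by more than 1.5 times and 48 did not. For Tbx2, 38 genes called became 114 with DESeq2 (34 shared), 165 with no filter, 2 with no replicate block, 16 at 50 CPM, 18 with any UMI and 9 without the neural clusters, and 19 to 55 without 1 batch. For Tbx3, 31 became 60, 94, 0, 14, 7 and 18 in that order (24 shared with DESeq2), 47 with blood-like cells included, and 14 to 47 without 1 batch. For Tbx15, 91 became 175 with DESeq2 (82 shared), 0 with no replicate block, 142 at 50 CPM, 31 with any UMI, 16 without the neural clusters, and 50 to 168 without 1 batch. For Tbx18, 19 became 47 with DESeq2 (18 shared), 65 with no filter, 1 with no replicate block, 31 at 50 CPM, 1 with any UMI, 57 with blood-like cells, 1 without the neural clusters, and 3 to 59 without 1 batch. For Tbx20, 153 became 569 with DESeq2 (149 shared), 415 with no filter, 22 with no replicate block, 531 with blood-like cells, and 50 to 272 without 1 batch. For stage, 0 became 86 with DESeq2 and stayed 0 without any 1 batch. Single genes kept direction and side of the threshold in 905 cases, lost the call in 287, gained it in 19 and turned in 25. The 905 include genes that were not called to begin with. For the genes named as called, the call was kept in 110 of 184 cases for Tbx2 and 156 of 217 for Tbx3. It was kept in 136 of 210 cases for Tbx15, 94 of 144 for Tbx18 and 237 of 279 for Tbx20. Log2 differences that turned without the neural clusters were, for Tbx2, Dbh -0.73, Isl1 -0.13 and Tbx20 -1.98; for Tbx3, Dbh -0.068, Dll3 -0.70, Isl1 -0.21, Nefm -0.68, Tbx20 -2.09 and Th -1.18; for Tbx18, Elavl3 0.25 and Nefm 0.12. With any UMI, Pax3 turned to 0.58 (Tbx2), 1.37 (Tbx15) and 1.68 (Tbx18). Dppa5a turned to -0.44 without its cluster, and Igf2 to 0.025 with blood-like cells, both for Tbx3. By stage, leaving out 1 batch gave Tbx2 -0.90 to 1.17, Tbx3 -0.72 to 1.24 and Tbx20 -0.998 to 4.05, and Tbx20 was 0.59 after thinning and 0.17 without the Dppa5a-led cluster. Pitx1 in the Tbx15 comparison ran from -1.25 to 2.79 without 1 batch. Shares by stage turned in 9 of 77 cases: Tbx2 to 19.3 percentage points with any UMI and 2.81 after thinning, and, without 1 batch, Tbx2 ran from -13.9 to 6.54, Tbx3 from -22.2 to 15.6, Tbx18 from -0.644 to 10.9 and Tbx20 from -3.80 to 7.07. The cause of these changes was not tested, apart from the fewer cells or batches that some settings hold by construction. No paired analysis was possible because each batch holds 1 stage and no label ties batches of the stages; the fit with no replicate block is given above. At 30000 UMIs 0 wells repeated another, so keeping repeated wells was run at 5000 UMIs. The comparison of Tbx4-positive with Tbx5-positive cells, and the Tbx20 comparison without the neural clusters, could not be fitted and had no alternatives run.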
